A study of Mus musculus with 2 samples.

Results

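The replication-dependent histone genes are described here in single cells from the dura, the tough outer layer of the meninges, of mice at 2 weeks of age. The members were all genes of the deposited table of annotated cells whose symbol starts with Hist1h, Hist2h, Hist3h or Hist4h, which gave 65 of 19347 genes. By the protein they encode, 6 were H1, 18 were H2A, 16 were H2B, 12 were H3 and 13 were H4 genes. By gene cluster, 51 belong to Hist1 (chromosome 13), 11 to Hist2 (chromosome 3), 2 to Hist3 (chromosome 11) and 1 to Hist4 (chromosome 6). The symbol Hist2h2bb stands for 2 gene IDs, and the other of these is written Hist2h2bb.1. Of the 65 members, 55 had at least 100 UMIs (unique molecular identifiers, each counting 1 captured mRNA molecule) over all annotated cells. The 10 members under that number had 7 to 93 UMIs: Hist1h1t, Hist1h2ad, Hist1h2ah, Hist1h2ao, Hist2h2aa2, Hist2h2bb, Hist1h3h, Hist1h4f, Hist1h4m and Hist1h4n.

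The cells came from 2 droplet (10x Genomics) libraries, 1 from heterozygous mice (Il33mcherry/+, "het") and 1 from IL-33 deficient mice (Il33mcherry/mcherry, "KO"). Both genotypes carry an allele that places an H2B-mCherry reporter at Il33, so the het mice have 1 intact copy of this cytokine gene. For each genotype and sex, tissue of 5 to 8 mice was pooled, and total viable cells were enriched with sorted CD45+CD11b- lymphocytes and gp38+CD31- stroma (1:1:2, lymphocytes to stroma to total). With 1 library per genotype there is no replicate, so no difference between het and KO was tested, and the 95% intervals given cover counting error only. Genotype, animals, sort and preparation cannot be told apart.

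Histones package DNA. A pair each of H2A, H2B, H3 and H4 forms the core particle around which DNA winds, and the linker histone H1 binds where DNA enters and leaves it. The replication-dependent genes lie in clusters, are transcribed mainly in S phase, and give mRNAs that end in a conserved stem-loop instead of a poly(A) tail. The stem-loop is bound by SLBP, the stem-loop binding protein. Libraries primed on poly(A) capture such mRNAs only in part, through polyadenylated forms or internal runs of A. Some members are also known to be made as longer polyadenylated mRNAs in cells that no longer divide, as Hist2h2be is in olfactory neurons. Meningeal dura at this age holds B cell precursors that divide, among many cell types that do so less.

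The het library had 5950 annotated cells and the KO library 6594, with medians of 12746.5 and 12204.5 UMIs per cell. The members held 119558 het and 141086 KO UMIs, or 1360 and 1498 CPM (UMIs scaled to a total of 1000000 in each class and library, not divided by gene length). The libraries share 36 cell barcodes, and 14 of these are annotated in both. A deposited cluster is called "-like" a cell type where 3 or more markers from a fixed list exceeded the other cells 2-fold. Clusters 1, 2, 6, 10 and 16 were B cell-like, 0 and 7 fibroblast-like, 3 macrophage-like, 5 arachnoid barrier-like and 18 monocyte-like. Clusters 17 and 19 were neuron-like, and cluster 19 led with Omp, Gng13 and other olfactory neuron genes. Cluster 21 is given by its leading genes Pde6g, Gnb3, Tph1 and Sag. Cluster 9 holds the lymphocytes that the authors named ILC2s (group 2 innate lymphoid cells), NK, gdTcells and Tcells. In cluster 10, 9 of the 10 leading genes are members, so its histone level helped to define it and is given as a description.

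The stem-loop is shown first, since it decides how histone mRNAs are made and captured. In the GENCODE M21 transcripts of the 63 members found there by gene ID (Hist1h2bm and Hist1h2bh were not), 40 members held 1 of 5 exact 16-base stem-loop cores, against 49 of all 21901 protein-coding genes (0.224%), of which 9 were not members. The core of Hist1h2ap was shared by 24 members of H1, H2A, H2B and H3, that of Hist1h4d by 7 H4 members, that of Hist1h3c by 6, that of Hist1h4i by 2 H4 members, and that of Hist2h2ac by no other member. The 5 sites are printed as DNA on the strand of the mRNA, with the stem-loop core in capitals.
Hist1h2ap: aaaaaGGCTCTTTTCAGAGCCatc
Hist1h4d: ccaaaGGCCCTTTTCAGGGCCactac
Hist1h3c: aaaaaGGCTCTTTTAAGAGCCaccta
Hist1h4i: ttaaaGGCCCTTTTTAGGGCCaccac
Hist2h2ac: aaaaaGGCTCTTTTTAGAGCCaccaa

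Among the 40 members with a core, 20 have an annotated transcript that runs at least 100 bases past it, and these held 42.8% of the histone UMIs. The other 20, whose transcripts end within 100 bases of it, held 24.2%, and the 23 members without a match held 32.5%. Only annotated transcripts were searched, so a member without a match cannot be said to lack a stem-loop. Several of these transcripts are short, such as 312 bases for Hist1h4k, 381 for Hist2h2bb.1 and 393 for Hist1h2ak, and could end before one. Hist1h2ap, a single-exon H2A gene (ENSMUSG00000094777, chromosome 13, 21833026 to 21833507, minus strand, GRCm38), ends 3 bases after its core. Hist4h4, the lone H4 gene of its locus (chromosome 6, 136801553 to 136804415, minus strand), runs 2445 bases past it. Near-identical copies limit what a single member's count means. Of the 90-base windows of its transcripts, 100% were unique among transcripts of other genes for Hist1h1b, 73.9% for Hist1h2bc, 68.1% for Hist1h2ae, 7.63% for Hist1h2ap and 0% for Hist2h3c1. The sources used here do not give how such reads were split, so members with few unique windows are uncertain.

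Promoters (250 bases before to 50 after the start, RefSeq, GRCm38.p6) were matched for 57 members and searched on both strands for the CCAAT box, for the TATA box (TATAAA) and for the octamer (ATTTGCAT). CCAAT was found in 48 of 57 (84.2%), against 37.4% of 32851 RefSeq promoters of that length. It was in each of the 6 H1, 16 H2A, 13 H2B and 10 H3 promoters and in 3 of 12 H4 promoters (25%). TATAAA was found in 33 (57.9%, against 13.6%). The octamer was found in 12 (21.1%, against 1.74%), of which 6 were H2A and 6 were H2B members. These matches describe the letters and do not show that a factor binds there. Printed are the promoter of the linker gene Hist1h1b (chr13:21780576-21780875, minus strand), that of the H4 gene Hist1h4d (chr13:23581318-23581617, plus strand), and 2 promoters that lie between an H2A and an H2B gene read in opposite directions. Hist2h2ac (chr3:96220831-96221130, minus strand) starts 239 bases from Hist2h2be, and Hist1h2ac (chr13:23683910-23684209, minus strand) starts 251 bases from Hist1h2bc. Capitals mark the matches to the 3 motifs on either strand.
Hist1h1b: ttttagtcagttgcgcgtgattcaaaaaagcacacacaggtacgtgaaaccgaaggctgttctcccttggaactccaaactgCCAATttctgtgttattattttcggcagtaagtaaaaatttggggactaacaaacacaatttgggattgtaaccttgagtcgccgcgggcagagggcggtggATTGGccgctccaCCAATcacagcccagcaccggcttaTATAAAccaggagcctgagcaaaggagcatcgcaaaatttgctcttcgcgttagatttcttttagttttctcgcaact
Hist1h4d: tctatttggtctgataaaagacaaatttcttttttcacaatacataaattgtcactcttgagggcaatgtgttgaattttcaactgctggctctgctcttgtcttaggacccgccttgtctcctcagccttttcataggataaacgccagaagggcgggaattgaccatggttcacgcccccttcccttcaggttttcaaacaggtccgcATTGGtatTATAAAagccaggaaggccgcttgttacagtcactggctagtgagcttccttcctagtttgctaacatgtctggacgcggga
Hist2h2ac: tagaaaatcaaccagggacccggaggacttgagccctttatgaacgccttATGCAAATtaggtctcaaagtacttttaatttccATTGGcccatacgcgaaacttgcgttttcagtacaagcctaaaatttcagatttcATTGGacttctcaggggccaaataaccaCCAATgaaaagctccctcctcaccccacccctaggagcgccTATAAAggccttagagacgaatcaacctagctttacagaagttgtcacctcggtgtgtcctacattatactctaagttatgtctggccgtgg
Hist1h2ac: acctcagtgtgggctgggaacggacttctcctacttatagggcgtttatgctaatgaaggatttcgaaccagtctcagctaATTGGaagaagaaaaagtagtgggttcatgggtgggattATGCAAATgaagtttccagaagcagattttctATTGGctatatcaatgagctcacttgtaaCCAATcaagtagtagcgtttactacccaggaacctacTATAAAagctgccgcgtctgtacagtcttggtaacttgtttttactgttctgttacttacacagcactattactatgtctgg

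Summed over all members, histone UMIs were concentrated in the dividing B cell-like clusters. Cluster 10 reached 12617 CPM over 227 het cells and 16318 CPM over 249 KO cells. Cluster 6, B cell precursors that express Igll1 and Vpreb1, stood at 4385 and 4711 CPM (319 and 328 cells). Cluster 10 held 3.39% of all UMIs but 34.4% of histone UMIs, and cluster 6 held 8.31% and 26.4%. The neuron-like cluster 17 (2172 and 1873 CPM), the monocyte-like cluster 18 (2282 and 1307), cluster 21 (1604 and 1698), cluster 19 (1315 and 1270) and cluster 12 (1138 and 1247) followed. Cluster 12 passed for the mast cell or basophil markers and also for the neutrophil lineage markers, so its level cannot be given to either alone. The fibroblast-like cluster 0, the most numerous, stood at 452 and 495 CPM, and the dendritic cell-like cluster 14 at 338 and 411. Cluster 14 was lowest in het, and cluster 8 (381 CPM) in KO. In the plot of summed levels, cluster 10 and then cluster 6 lie above every other class in both libraries, and most of the others lie within a narrow band below 1000 CPM.

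**Figure D1:**
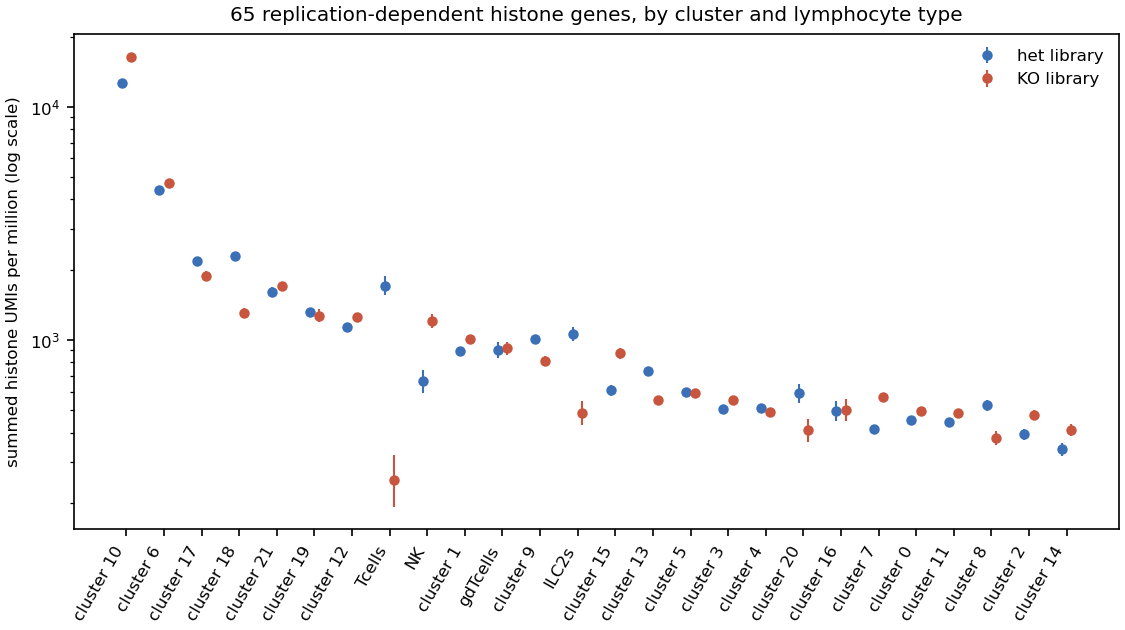
Summed level of the 65 histone genes (CPM, log scale) in each deposited cluster and in the 4 lymphocyte types of cluster 9, with points for the het and KO libraries and bars for 95% Poisson counting intervals. Cluster 10 is highest in both libraries (12617 and 16318), followed by cluster 6 (4385 and 4711).

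The level per cell showed how evenly each class carried these genes. Cells above 5000 CPM made up 6.42% of het cells (382) and 6.22% of KO cells (410) and held 58.7% and 63.5% of the histone UMIs. In cluster 10, 96.5% of het and 99.6% of KO cells were above that level, and in cluster 6, 33.2% and 32.0%. In clusters 17 and 18 a minority of cells set the sum. Cluster 17 had a median of 753 CPM per het cell and 774 per KO cell, well below its summed level, and 13 het and 5 KO cells above 5000 CPM. The median cell of cluster 12 (370 and 367 CPM) was also well below its summed level. Cluster 19 was the opposite, with a median cell (1241 and 1235 CPM) close to its sum. After each cell was thinned to 1000 UMIs, 98.7% of het and 100% of KO cells of cluster 10 had a histone UMI. In cluster 0 this share was 32.4% (het) and 33.2% (KO), against 97.9% and 98.1% without thinning. Free RNA from lysed cells adds UMIs to all droplets, and its part in the low levels was not tested.

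The H1 members, the linker histones, split into a gene bound to dividing clusters and one found in every cluster. In cluster 10, Hist1h1b reached 2485 CPM in het and 2927 CPM in KO. It was at 1066 and 1153 in cluster 6 and at 15.0 and 15.4 in cluster 0. Over both libraries it was at 3.2 CPM in cluster 19 and 1.4 in cluster 21. Hist1h1c stood at 399 and 430 CPM in cluster 10, but also at 317 in cluster 1, the Rag1-expressing small B cell-like cluster, and at 96.1 in cluster 0, both libraries together. Hist1h1e was at 975 (het) and 1136 (KO) in cluster 10 and at 90.5 in cluster 1, both libraries together. Hist1h1a was at 402 in cluster 10 and 134.7 in cluster 6, both libraries together. The 6th H1 member, the testis gene Hist1h1t, had 27 UMIs in all.

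Among H2A genes, Hist1h2ap (2380 and 3349 CPM), Hist1h2ae (1944 and 2702) and Hist1h2ab (483 and 669) were all highest in cluster 10 and next in cluster 6. Hist1h2ap was at 18.2 and 22.7 CPM in cluster 0. The 4th H2A gene by UMIs, Hist3h2a, did not follow them. It was highest in cluster 1, at 170 CPM in het and 171 in KO, against 100.2 and 117 in cluster 10, and between 14.8 CPM (cluster 9) and 96.3 CPM (cluster 17) in the other clusters, both libraries together. Hist3h2a overlaps Trim17 on the same strand in the annotation, so part of its count could come from that gene.

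Among H2B genes, Hist1h2bc gave the most UMIs (29297) and was spread over nearly all classes. In cluster 21 it reached 1041 (het) and 1166 CPM (KO), against 332 and 350 in cluster 10 and 189.6 and 187.9 in cluster 0. Hist3h2ba was highest in the neuron-like clusters, with 342 and 309 CPM in cluster 19 and 238 and 277 in cluster 17, against 102 and 113 in cluster 10. It was not limited to them. Over both libraries it was at 132 CPM in the Schwann cell or oligodendrocyte-like cluster 15, 62.9 in cluster 16 and 57.3 in cluster 21. Hist1h2bj followed the sum (170 CPM in cluster 10, 63.3 in cluster 6, both libraries together), and Hist1h2be was highest in cluster 21 (106 and 101). Hist1h2be overlaps Hist1h1e on the same strand in the annotation, so part of either count could come from the other gene. The makeup of histone UMIs differed between classes. H2B gave 44.9% (het) and 40.8% (KO) of histone UMIs in cluster 0, 66.5% and 63.8% in cluster 19, and 78.9% and 77.0% in cluster 21. In cluster 10, H2A was the most counted class, with 43.1% and 46.4%.

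H3 and H4 genes mostly followed the sum. Hist1h3c was at 195 (het) and 306 CPM (KO) in cluster 10 and at 1.28 and 1.02 in cluster 0. Hist1h3e and Hist1h3a were at 151 and 56.8 CPM in cluster 10, both libraries together, and at 2.8 and 1.0 in cluster 0. Hist1h3f was at 74.1 and 95.1 CPM in het and KO cluster 10 and at 0.562 and 0.884 in cluster 0. Among H4 genes, Hist1h4d stood at 822 and 1115 CPM in cluster 10 and at 16.1 and 25.0 in cluster 0. Hist1h4i was at 183 CPM in each library in cluster 10, and Hist1h4h at 168, both libraries together. Hist4h4 did not follow the sum, with 12.4 CPM in het and 9.94 in KO in the arachnoid barrier-like cluster 5, 7.41 and 10.3 in cluster 10, and 0.95 in cluster 21, both libraries together, where it was lowest.

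**Figure D2:**
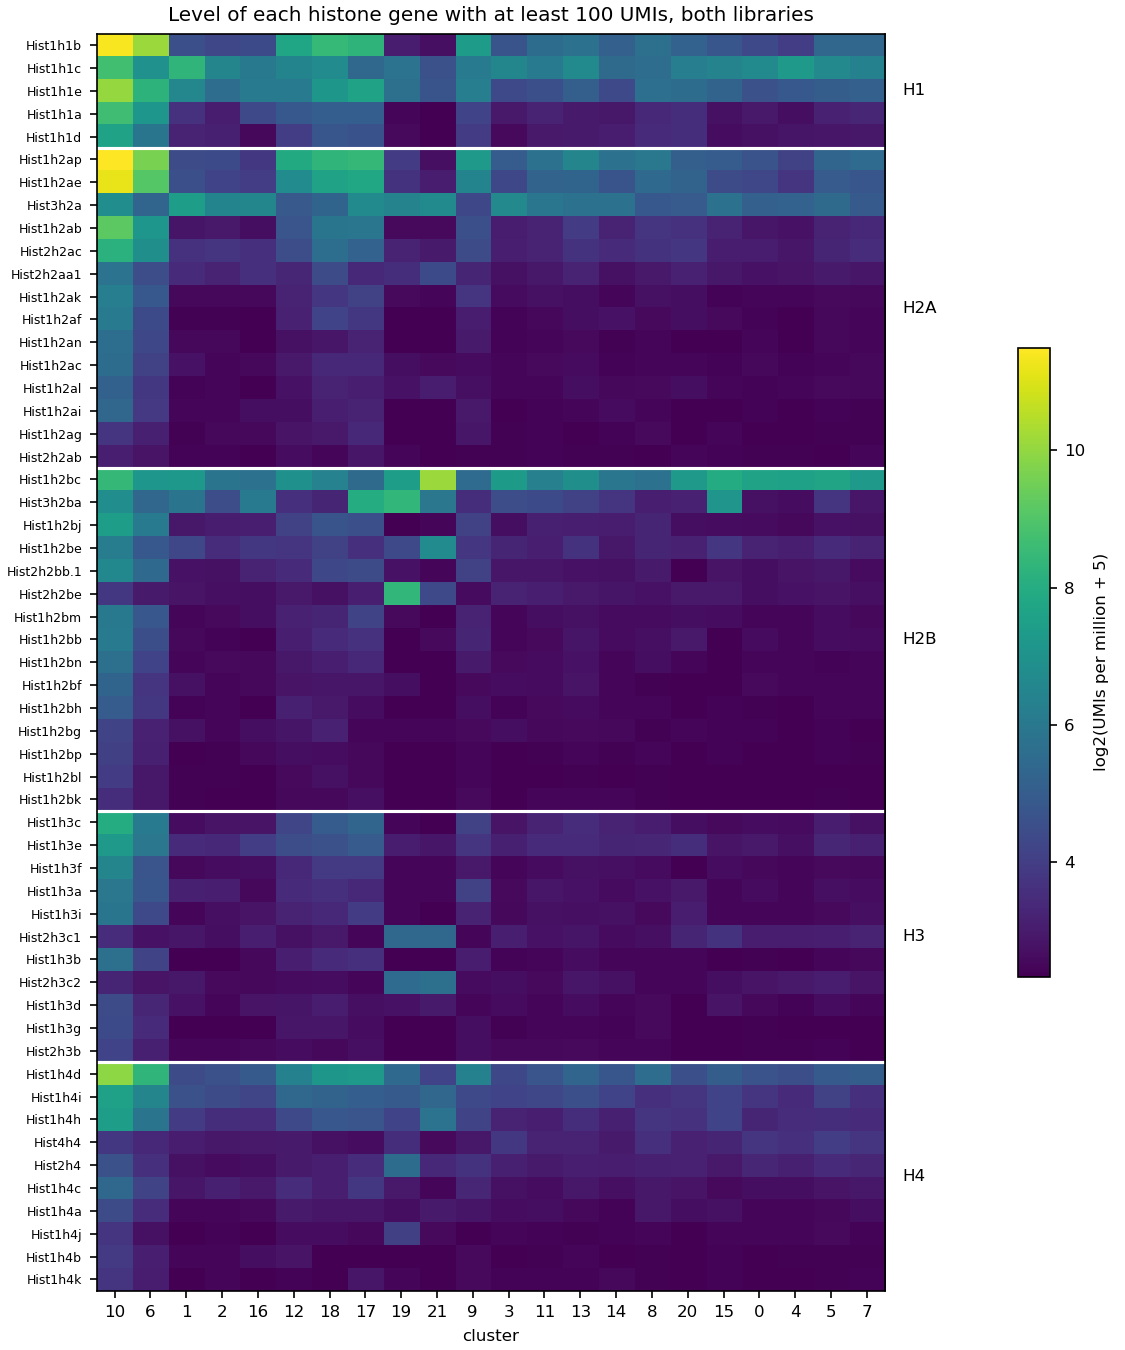
Level of each of the 55 members with at least 100 UMIs (rows, grouped by H1, H2A, H2B, H3 and H4 and ordered by UMIs) in the 22 clusters (columns), as log2(CPM + 5) over both libraries. Most rows are brightest in cluster 10 and next in cluster 6. Hist3h2a, Hist1h2bc, Hist3h2ba, Hist1h2be, Hist2h2be, Hist2h3c1, Hist2h3c2, Hist4h4, Hist2h4 and Hist1h4j are brightest in another cluster.

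Of the 55 members with at least 100 UMIs, 45 had their highest level in cluster 10, against 4.72% of all 15227 genes with that many UMIs. Since the clustering used these genes, the count describes the clusters and supports nothing about the members. The 10 others were 3 H2B and 1 H2A genes already named (Hist1h2bc, Hist3h2ba, Hist1h2be and Hist3h2a), Hist4h4, and 5 genes that were highest in cluster 19 or 21. Hist2h2be, an H2B gene, was counted in 77 of 84 het cells and 32 of 41 KO cells of cluster 19, at 349 and 303 CPM. It was at 9.09 and 8.76 CPM in cluster 10 and at 15.2 in cluster 21, both libraries together, the next highest. Hist2h4 was at 39.3 and 47.5 CPM in cluster 19, with a lower level in cluster 10 (17.8 in het). Hist1h4j was at 10.8 and 12.9 in cluster 19 and 8.08 and 8.76 in cluster 10, where the intervals overlap. The near-identical H3 genes Hist2h3c1 (42.0 and 28.8 in cluster 19, 36.0 and 39.3 in cluster 21) and Hist2h3c2 (47.4 and 27.3, 45.9 and 47.6) were high in both of these clusters and under 7 CPM in cluster 10. Which of clusters 19 and 21 was the higher changed with the library for these 2 genes, and for Hist4h4 the highest cluster was 5 in het and 19 in KO.

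Neighbouring genes did not always share a pattern. In 9 pairs of members with starts at most 1000 bases apart in opposite directions, 7 had both genes highest in cluster 10. The 2 others are those whose promoters are printed above. No minimum of UMIs was set for the pairs, and Hist1h2ah and Hist1h2ad had 18 and 25 UMIs. Since 45 of the 55 members with at least 100 UMIs were highest in cluster 10, the count of 7 says little about pairing. Hist2h2ac had 76.7% of its 4523 UMIs in clusters 6 and 10, and Hist2h2be, which starts 239 bases away, had 8.38% of its 1194. Hist1h2ac had 74.9% of 605 UMIs there, and Hist1h2bc, 251 bases away, had 14.2% of 29297. Hist2h2be has an annotated transcript of 2620 bases in 1 exon and Hist1h2bc one of 1156 bases in 2 exons, and neither holds a stem-loop core. Hist2h2ac ends 57 bases after its core. Hist1h2ae and Hist1h2bg, 176 bases apart, were both highest in cluster 10 but had 27406 and 253 UMIs.

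Histone levels rose with the S-phase genes of the same cell, which are no members. Cells were thinned to 2000 UMIs and grouped by their UMIs of 40 DNA replication genes. From 0 to 6 or more such UMIs, the summed histone level stood at 438, 581, 1506 and 5133 CPM in het and at 476, 563, 1616 and 6363 in KO. Without clusters 6 and 10 it still went from 432 to 2208 CPM in het and from 469 to 2408 in KO. The lines for the libraries in the plot of these groups nearly coincide until the last one.

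**Figure D3:**
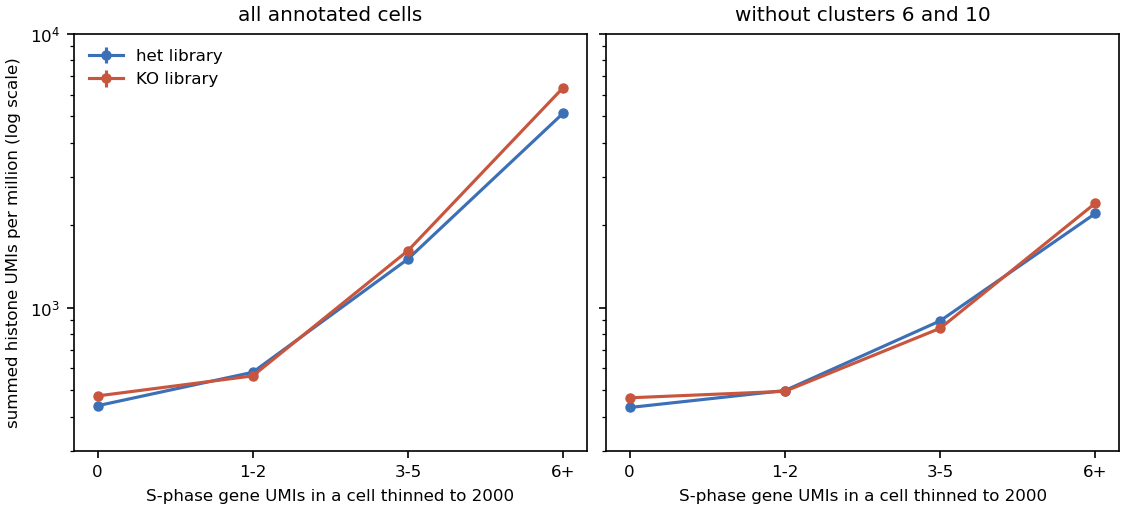
Summed histone level (CPM, log scale) in cells grouped by the UMIs of 40 S-phase genes after thinning to 2000 UMIs, for all annotated cells (left) and without clusters 6 and 10 (right), with lines for the het and KO libraries and bars for 95% counting intervals smaller than the points. The level is lowest in cells with none of these UMIs (438 and 476) and highest in cells with 6 or more (5133 and 6363).

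Cells counted with S-phase genes and few G2/M genes did not have a high level. Cells with at least 3 S-phase and under 3 G2/M gene UMIs had 447 (het) and 554 CPM (KO), near the 417 and 452 of cells with neither. Of the cells with S-phase but under 3 G2/M UMIs, 26 of 663 in het and 32 of 693 in KO lay in cluster 6. In cluster 10 lay 0, so most were of other classes. The S-phase list itself stood at 577 CPM (het) and 499 CPM (KO) in cluster 0. Whether the cells of this range were in S phase was not tested. Cells with at least 3 of both stood at 5660 and 6847, and cells with only the G2/M genes at 1765 and 1743. Hist1h1b followed this order, with 2.38, 37.1, 1329 and 175 CPM in cells with neither, S-phase only, both and G2/M only. Hist1h2bc did not, with 172, 113, 146 and 249, and neither did Hist1h1c, with 93.8, 75.9, 170 and 164. The authors' own phase calls gave 447 and 464 CPM in G1, 1425 and 1439 in S and 6214 and 6725 in G2M. These calls read the same free RNA and were not used to judge how many cells divide.

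Within clusters 6 and 10, cells were also ordered by their histone level into 4 ranges, from 442 CPM (het) and 474 CPM (KO) in the lowest to 18144 and 19384 in the highest. Cluster 10 cells made up 4.38% (het) and 0% (KO) of the lowest range and 86.6% and 91.3% of the highest. The lowest and highest ranges therefore mostly set cluster 6 against cluster 10. A trend within either cluster was not tested. From the lowest to the highest range in het, Rrm2, a subunit of the enzyme that makes deoxyribonucleotides, went from 244 to 881 CPM, Slbp from 273 to 559, Top2a, which untangles DNA, from 420 to 2073, and Ccna2, the S and G2 cyclin, from 147 to 484. The S-phase genes did not move as one: 20 of 40 were higher in the highest than in the lowest range in both libraries, 16 were lower in both, and 4 differed between libraries. Genes known for the start of S phase were found on both sides. In het, Ung went from 68.5 to 6.27 CPM and the replicative helicase subunit Mcm5 from 196 to 132, while another subunit, Mcm7, went from 276 to 323 and the polymerase clamp Pcna from 205 to 274. The genes named here were chosen after their values were seen. The mitotic cyclin Ccnb1 was at 206 and 185.

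Other genes of the pathway were counted by the cluster of their highest level. Over all 15227 genes with at least 100 UMIs, 4.72% were highest in cluster 10. Of 25 genes for histone transcription and 3-prime processing, 7 were highest in cluster 10: Slbp (489 CPM over both libraries), Ccne1, Ccne2, Cdk2, Eri1, Cstf2 and Lsm11. Of 20 histone chaperone and assembly genes, 5 were highest in cluster 10 (Anp32e, Rbbp4, Ssrp1, Supt16 and Asf1b) and 6 in cluster 6. Of 11 genes of replacement histones and variants, 7 were highest in cluster 10, with H2afz at 5287 CPM in cluster 10 and 683 in cluster 1, and H2afx at 1911 and 48.9. H1f0, the linker histone of non-dividing cells, was highest in cluster 17 (353 CPM, against 90.2 in cluster 10). For comparison, 24 of 40 S-phase genes and 35 of 40 G2/M genes were highest in cluster 10, and 15 S-phase genes in cluster 6. These lists were chosen with earlier results of these cells known.

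Over the 22 clusters, the non-member genes whose log2 level was most like the summed histone level were Ncapd3 (Pearson r = 0.94), 4930579G24Rik (0.94), Ccdc18 (0.92), Ncapd2 (0.91), Hmgn2 (0.91), Mrpl18 (0.91), 2700029M09Rik (0.90), Suv39h1 (0.90), Ssrp1 (0.90) and Maz (0.90). Ncapd2 and Ncapd3 are condensin subunits and Suv39h1 methylates H3. Each r is over 22 clusters that share libraries and depth, and describes them only. Of the 4 members with most UMIs, Hist1h1b (0.69 with the sum of the other members), Hist1h2ap (0.68) and Hist1h2ae (0.78) followed it, and Hist1h2bc (0.11) did not.

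Between the libraries, the summed histone level over all annotated cells was 1.10-fold higher in KO (95% interval 1.09 to 1.11). By protein, the KO/het ratio was 1.06 for H1, 1.19 for H2A, 0.985 for H2B, 1.10 for H3 and 1.14 for H4. With clusters 6 and 10 left out, the ratio of the sum was 0.982 (0.970 to 0.994), at 641 CPM in het and 630 in KO. This pooled value does not place the excess in clusters 6 and 10 alone. Other clusters went both ways, with 1.10 in cluster 0 and 1.38 in cluster 7, but 0.754 in cluster 13 and 0.573 in cluster 18. The pooled value also depends on the number of cells per cluster, and cluster 17 had 123 het and 63 KO cells. In cluster 10 the ratio was 1.29 (1.28 to 1.31), and the median cell had 13979 (het) and 17834 CPM (KO). Of the 55 members measured there (at least 20 UMIs), 11 were at least 1.5-fold higher in KO, against 3.19% of 9456 genes, and 0 were at least 1.5-fold lower, against 13.2%. The median log2 ratio was 0.36 over the members and -0.04 over all genes measured. A ratio above 1 was seen for 50 of 55, and those below were Hist1h2bp, Hist1h4i, Hist2h2aa1, Hist2h2be and Hist2h3c1.

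Markers of other cell types moved with this difference. The 10 neutrophil lineage markers summed to 2986 CPM in het and 52.9 in KO within cluster 10, the fibroblast markers to 1844 and 777, and the macrophage markers to 299 and 29.7. The 11 B lineage markers summed to 7857 and 8377 CPM, with none at 0. In 8 het cells and 1 KO cell, the UMIs of 8 non-B marker lists equalled or outnumbered those of the B lineage, and these 8 het cells stood at 1613 CPM of histone UMIs. Without them, the 219 het cells left had 13705 CPM and the 248 KO cells 16356 CPM, and the ratio was 1.19 (1.18 to 1.21). Then 8 of 55 members were at least 1.5-fold higher (5.99% of 8885 genes) and 0 lower (3.91%), 46 were above 1, and the median log2 ratio was 0.24 over the members and 0.001 over all genes. This restriction was chosen after the marker levels were seen, and values in cluster 10 without these cells are given below as such.

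The members differed in how far KO lay above het. By protein, the ratio in cluster 10 was 1.17 for H1 (1.08 without the non-B cells, as in each parenthesis that follows), 1.20 for H2B (1.13), 1.28 for H4 (1.18), 1.39 for H2A (1.28) and 1.42 for H3 (1.32), and the intervals of H1 (1.15 to 1.20) and H2B (1.15 to 1.26) overlap. Among H1 genes, Hist1h1b was at 1.18 (1.08), Hist1h1e at 1.17 (1.07), Hist1h1c at 1.08 (1.01), Hist1h1a at 1.23 (1.14) and Hist1h1d at 1.27 (1.17). Among H2A genes, Hist1h2ap was at 1.41 (1.29), Hist1h2ae at 1.39 (1.28), Hist1h2ab at 1.39 (1.28) and Hist2h2ac, with 219 CPM in het and 340 in KO, at 1.55 (1.42). Hist1h2al, also H2A, stood at 19.9 and 41.3 CPM and had the ratio furthest from 1 by its interval, 2.08 (1.89). Among H2B genes, Hist1h2bn was at 33.7 and 60.7 CPM, or 1.80 (1.66), and Hist1h2bc at 1.06 (1.02). Hist1h3c, an H3 gene, was at 1.57 (1.45). Among H4 genes, Hist1h4d was at 1.36 (1.25) and Hist1h4i at 0.999 (0.918). The plot of the ratios shows the narrow intervals of Hist1h1b and Hist1h1e below those of Hist1h2ap and Hist1h2ae, and the wide intervals of the members with few UMIs across them.

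**Figure D4:**
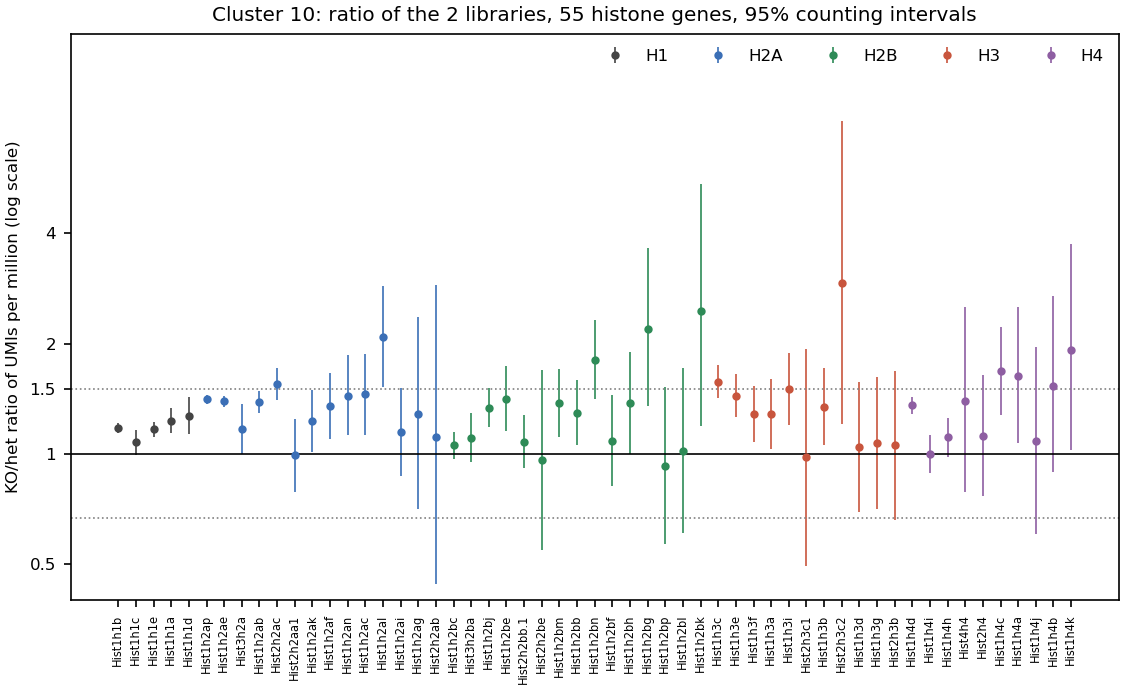
KO/het ratio of CPM (log scale) in all annotated cells of cluster 10 for each of 55 members, coloured by protein and ordered by UMIs within it, with 95% counting intervals. The solid line marks 1 and the dotted lines 1.5-fold in each direction, and 50 of 55 points lie above 1.

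The females and males of a genotype were separate animals, so each sex gave the comparison again within the same 2 libraries. A cell carries the authors' female label exactly where it has an Xist UMI (12544 of 12544 cells follow this). Of the cells labelled male, 80.5% in het and 78.9% in KO had a UMI of the Y-linked genes Ddx3y, Eif2s3y, Kdm5d or Uty, and of those labelled female 13.7% and 17.7% had one, so the label mixes the sexes in part. In cluster 10 the ratio was 1.27 (1.24 to 1.29) in female cells and 1.29 (1.26 to 1.32) in male cells, and 1.14 and 1.24 without the non-B cells. Of 50 members with 20 UMIs in each sex, 33 were higher in KO in both, against 25.1% of 7426 genes, and 1 was lower in both, against 28.5%. Without the non-B cells, 31 of 50 were higher in both (24.3% of 7152 genes) and 1 was lower in both (25.7%). Hist1h2ap stood at a ratio of 1.39 in female and 1.40 in male cells (1.25 and 1.34 without the non-B cells), Hist2h2ac at 1.45 and 1.74 (1.30 and 1.66) and Hist1h2bc at 0.905 and 1.16 (0.862 and 1.14).

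Cluster 10 is cut from the B cell precursors by its histone level, so the ratio was also taken over cells not split in that way. Clusters 6 and 10 together gave 1.20 (1.19 to 1.21; 6748 CPM in het, 8101 in KO), with 1.19 in cells of each sex. The non-B cells are kept in these wider groups. Cells of any cluster with 6 or more S-phase UMIs gave 1.24 (1.23 to 1.25), and those with 6 or more G2/M UMIs 1.23 (1.22 to 1.24). In the S-phase cells the sexes gave 1.23 and 1.26, and in the G2/M cells 1.14 and 1.32. Clusters 6 and 10 made up 62.6% (het) and 68.1% (KO) of these S-phase cells, and 66.5% and 70.5% of these G2/M cells. Outside clusters 6 and 10 the libraries were closer, with 2208 CPM in het and 2408 in KO for the S-phase group. The G2/M group there stood at 2819 and 2990. The cell cycle lists differed less in cluster 10. Of 40 S-phase and 40 G2/M genes, 0 were at least 1.5-fold higher or lower there, and their median log2 ratios were 0.10 and 0.07. Without the non-B cells these counts were again 0 and the medians 0.005 and -0.05.

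In cluster 6 alone the libraries were close. The ratio was 1.07 (1.06 to 1.09), 1 of 55 measured members was at least 1.5-fold higher in KO (6.96% of all genes measured) and 2 were lower (4.22%), and the median log2 ratio was 0.05. The sexes went opposite ways, with 1.18 in female and 0.947 in male cells. The plot of ratios by sex sets the classes side by side. Of 22 classes with at least 20 cells of each sex and library, 5 were higher in KO in both sexes, 2 were lower in both, 5 were opposite, and in 10 at least 1 interval held 1. These counts include cluster 9 and also its ILC2s and gdTcells, so the classes share cells.

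**Figure D5:**
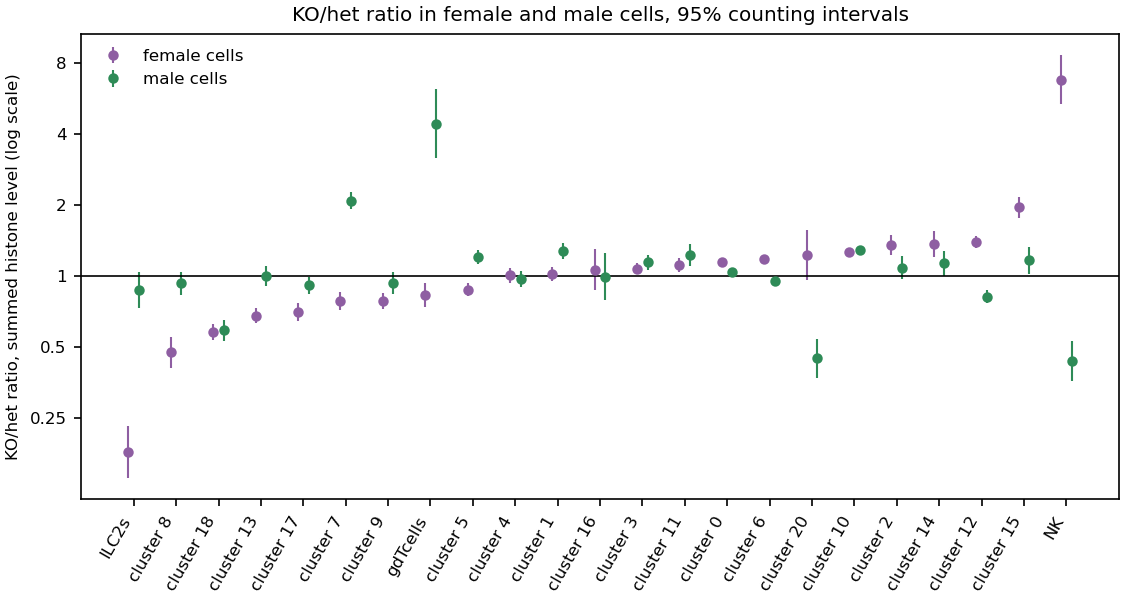
KO/het ratio of the summed histone level (log scale) in cells labelled female and male for each cluster and lymphocyte type with at least 20 cells of each sex and library, and for NK, ordered by the female ratio, with 95% counting intervals. Cluster 10 is above 1 in both sexes, while ILC2s (0.180 and 0.872) and NK (6.75 and 0.437) have a different ratio in each sex. NK had only 17 het cells labelled male.

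The ILC2s, the lymphocytes that respond to IL-33, had 1058 CPM of histone UMIs in 66 het cells and 486 CPM in 65 KO cells (ratio 0.459, interval 0.401 to 0.525). Of 9 members measured, 0 were at least 1.5-fold higher in KO (9.05% of 5759 genes) and 6 were lower (14.1%). Their median log2 ratio was -0.996. Hist1h1b stood at 279 and 77.5 CPM (0.278), Hist1h2ap at 158 and 74.3 (0.469), Hist1h1c at 129 and 61.4 (0.476), Hist1h1e at 61.2 and 27.4 (0.449) and Hist1h2ae at 61.2 and 30.7 (0.502). The counts rest on few cells: 1 cell held 20.1% of the het and 1 cell 37.2% of the KO histone UMIs, and without these 2 cells the ratio was 0.357. The female cells gave 1442 and 260 CPM (0.180) and the male cells 774 and 674 (0.872, 0.733 to 1.03), so the difference lay mainly in the cells labelled female. The G2/M genes moved with it, with 23 of 23 measured at least 1.5-fold lower in KO and a median log2 ratio of -2.35, and 11 of 32 S-phase genes were lower. The B lineage markers were at 237 (het) and 56.5 CPM (KO) in these cells, with 1 and 4 of 11 at 0, and the fibroblast markers at 392 and 844. Their part in the result was not tested.

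NK cells, innate lymphocytes that kill target cells, went the other way, with 663 CPM in 52 het cells and 1206 CPM in 54 KO cells (ratio 1.82, interval 1.59 to 2.08). Of 10 members measured, 6 were at least 1.5-fold higher in KO (14.1% of 5828 genes) and 1 lower (9.92%), with a median log2 ratio of 0.73. Hist1h1b stood at 77.4 and 222 CPM and Hist1h2ae at 50.2 and 115. Again 1 cell held 31.9% of the het and 1 cell 27.7% of the KO histone UMIs. The 2 het and 4 KO cells above 5000 CPM held 63.1% and 71.7%, and the other cells stood at 259 and 393 CPM. The sexes were opposite, with 6.75 in female cells (35 het, 22 KO) and 0.437 in male cells (17 het, 32 KO), so no direction held for this class. In het, female cells stood at 260 CPM and male cells at 1413.5. In NK cells the fibroblast markers were at 1154 (het) and 3601 CPM (KO) and the B lineage markers at 54.4 and 274, and their part was not tested. The gdTcells stood at 903 and 920 CPM (1.02, 0.919 to 1.13), with 0.828 in female and 4.39 in male cells. These values rest on few cells: 2 het and 3 KO gdTcells above 5000 CPM held 51.8% and 75.3% of the histone UMIs. The other gdTcells stood at 466 and 242 CPM. The Tcells (30 and 32 cells) stood at 1709 and 250 CPM, with 51.2% of the het UMIs in 1 cell.

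Among the other classes with at least 50 cells in each library, the ratio was lowest in cluster 18 (0.573), with 0.579 in female and 0.589 in male cells and 0.281 without the cells of high doublet score. It was highest in cluster 15 (1.44) and the fibroblast-like cluster 7 (1.38), where female cells gave 0.781 and male cells 2.09. Of the 23 classes of that size, 12 had a ratio with its interval above 1, 7 below, and 4 with 1 inside, and these numbers stayed the same without the cell with most histone UMIs in each library. Counting intervals do not include the spread between animals, which 1 library per genotype does not show.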

How the data were processed

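Per the labels and the submitters' processing notes, the authors made UMI counts per gene and barcode with Cell Ranger 3.0.2 on mm10. The sources used here do not give the gene annotation. The authors deposited a table of counts for annotated cells and metadata with each cell's cluster, sex label and phase call. In 12542 of 12544 cells all member counts of that table equal those of the matrices.

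For each class and library, raw counts of its annotated cells were added up and scaled to 1000000 (Python 3.11.15, scipy 1.17.1). Intervals are exact at 95%: Poisson for sums, conditional binomial for ratios. There are no tests. A call is a fold of at least 1.5 with at least 20 UMIs. Stem-loops and windows were searched in GENCODE M21 transcripts, motifs in RefSeq promoters (GRCm38.p6). The ratio step was tested on simulated counts.

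Scrublet (scanpy 1.11.5) marked 0.0504% of het and 0.0152% of KO cells as doublets, so it did not work as a caller, and the top 8% by score were left out as an alternative. Named members are the 4 with most UMIs per protein, those of at least 100 UMIs highest outside cluster 10, and the 5 furthest from 1 per direction in cluster 10 and ILC2s, plus the 10 most alike genes. Hist1h1d (to complete H1) and, for their pairs, Hist2h2ac, Hist1h2ac and Hist1h2bg were chosen after their values were seen. Members and lists were chosen with earlier results of these data known.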

Additional observations from a re-analysis of the deposited data

Results flagged for a closer look

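The summed histone level differed between KO and het in opposite directions in lymphocyte types of the same libraries: the ratio was 0.459 in ILC2s and 1.82 in NK cells, against 1.29 in cluster 10 (1.19 without its 8 het cells and 1 KO cell of non-B markers). These differences between classes were not tested.

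In 5 classes the cells labelled female and male went opposite ways with intervals clear of 1. The KO/het ratio in female cells was 1.39 in cluster 12 (0.816 in male cells), 0.874 in cluster 5 (1.20), 1.18 in cluster 6 (0.947), 0.781 in cluster 7 (2.09) and 0.828 in gdTcells (4.39). These differences were not tested either. In gdTcells, 2 het and 3 KO cells above 5000 CPM held 51.8% and 75.3% of the histone UMIs.

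The barcodes that the authors did not annotate, which enter no comparison, also held histone UMIs, at 1505 CPM in het (4986 barcodes) and 1548 CPM in KO (5452 barcodes), above the 1360 and 1498 CPM of the annotated cells.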

How the results depend on the processing

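No paired analysis was possible because each genotype has 1 library, and for the same reason no replicate could be left out. Of 255 alternatives, 84 for the main values and 66 for ratios of single classes stayed within the counting interval or within 1.5 times of the count. The direction turned in 4 and 4. In cluster 6 the ratio was 0.98 as a mean over cells and 0.947 in male cells. In NK cells male cells gave 0.437 and a median log2 ratio of -1.65. In cluster 12 it was 0.904 as a mean over cells and 0.816 in male cells, in cluster 7 0.781 and in cluster 20 1.23 in female cells. The cause was not tested.

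Other ratios moved beyond their counting interval but kept their side of 1. Over all cells the ratio was 1.09 as a mean over cells, 1.07 without high Scrublet scores, 1.04 in female and 1.21 in male cells, and 1.11 without Hist1h1b. In cluster 10 these were 1.24, 1.22 and 1.27 (female), with 1.32 without Hist1h1b, and, chosen after seeing the data, 1.20 with cluster 6 added and 1.19 with B lineage cells only, where the median log2 ratio was 0.24. Cluster 6 gave 1.06 without high Scrublet scores and 1.18 in female cells. ILC2s gave 0.357 without the top cells, 0.535 without high Scrublet scores, 0.180 in female and 0.872 in male cells. NK gave 1.40 as a mean over cells, 1.51 without high Scrublet scores and 6.75 in female cells.

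Counts of members moved with the thresholds. With a fold of 2, 4 members were higher in cluster 10, 0 higher and 0 lower in cluster 6, and 3 higher and 0 lower in NK. With no minimum, 1 was lower in cluster 10, 5 were higher and 5 lower in cluster 6, 2 higher and 19 lower in ILC2s, and 22 higher and 3 lower in NK. With 50 UMIs or without high Scrublet scores 0 were lower in NK, and 4 were lower in cluster 6 without high scores or with B lineage cells only. Median log2 ratios were -0.10 in male cells of cluster 6. In ILC2s they were -3.09 in female cells, -0.30 in male cells and 0 with no minimum. In NK they were 0.93 with 50 UMIs, 0.17 with no minimum and 2.72 in female cells. With no minimum, members with 0 counts in 1 library and at most 3 in the other are set to a log2 ratio of 0.

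The level in cells with 6 or more S-phase UMIs over that with 0 was 11.7-fold in het and 13.4-fold in KO. It was 10.8 and 12.98 after thinning to 1000, 10.1 and 11.5 with other bins, 12.3 and 14.4 without shared genes, 12.5 and 14.8 without high Scrublet scores and 9.35 and 10.0 in B cell-like clusters. Thinning set the share of cells with a histone UMI: without it cluster 10 had 100% in het and cluster 0 had 97.9% in het and 98.1% in KO, and at 2000 UMIs cluster 0 had 49.6% and 52.9%. Depth limits the members with under 100 UMIs, for which a difference of 1.5-fold was mostly within the counting interval.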
